A study of Mus musculus with 29 samples.

Results

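The genes described here are 10 genes of lipid-associated and foamy macrophages, measured in the aortic arch of DNA repair-deficient mice and of their wildtype littermates. They are Spp1, Lgals3, Gpnmb, Trem2, Cd68, Mpeg1, Tyrobp, Apoe, Fabp5 and Cd9, out of 56748 genes in the table of counts. The list was written by name, and it was selected on measured values of these samples in one respect: Spp1 and Lgals3 were taken up because they responded to dietary restriction (DR) differently in the 2 genotypes. All 10 symbols matched 1 Ensembl gene each. Of the 10 genes, 9 exceeded 10 counts in over 10 of the 28 samples and could be tested among 12353 genes, and Trem2, with 0 to 24 counts per sample, could not.

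Macrophages that take up lipoproteins and cell debris in the vessel wall store the cholesterol as droplets and are then called foam cells. The surface receptor TREM2 binds lipids and lipoproteins and signals through the adaptor TYROBP (DAP12), and macrophages that have passed through this programme carry a set of secreted, lysosomal and lipid-handling proteins. The genes of this set are known from atherosclerotic plaque, from fat tissue and from the brain. None of them is exclusive to one cell: Spp1 and Lgals3 are also made by smooth muscle cells that lose their contractile character, Apoe and Cd9 by many cells of the vessel wall, and Fabp5 by fat cells. In bulk tissue, more cells of a type and more RNA per cell cannot be told apart.

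The mice were F1 hybrids of C57BL6J and FVB. Ercc1Δ/− mice carry 1 truncated (Δ) and 1 null allele of the repair gene Ercc1 in every tissue, and WT littermates (Ercc1 +/+) served as controls. AL-fed mice had free access to AIN93G pellets and were sampled at 6 or 22 weeks. On DR the ration was lowered in weekly steps from 7 weeks of age to 30% less from 9 weeks on, and these mice were sampled at 22 weeks. All mice were housed singly and perfused before the arch was taken. The samples analysed were 5 WT and 5 Ercc1Δ/− mice at 6 weeks, 4 WT and 4 Ercc1Δ/− AL-fed mice at 22 weeks, and 5 WT and 5 Ercc1Δ/− mice on DR, with both sexes in every group. Each mouse gave 1 sample.

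Counts on genes ran from 921167 to 9616382 per sample. At 22 weeks on AL, the totals of WT (3903589 to 9616382) lay above those of Ercc1Δ/− mice (1294980 to 3855444). On DR they did so too (2660422 to 6124471 in WT and 921167 to 2572523 in Ercc1Δ/− mice). One further WT AL-fed sample of 22 weeks, number 003, held 400410 counts and was left out, as the study did. Ercc1 itself, the check of the genotype labels, had 28.2 to 78.7 normalized counts in Ercc1Δ/− mice and 82.8 to 136 in WT mice, apart from the WT sample 011 of 6 weeks with 52.2 from 13 reads. In the Ercc1Δ/− DR group, sample 016 stood apart: 5 marker genes of serous cavity macrophages summed to 2039 normalized counts there against 389 to 505 in every other Ercc1Δ/− sample of 22 weeks. Most of the excess came from Alox15 (1012), F5 (401) and Garnl3 (204). Gata6, another of the 5, was not raised, with 398 in sample 016 and 306 to 399 in those other samples. Results that this sample moved most are given with and without it. The labelled tissue carried its defining markers, with 9 smooth muscle genes summing to 61925 to 159096 normalized counts.

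The regions just upstream of the transcription starts are shown for 4 of the genes whose normalized counts were higher in Ercc1Δ/− mice than in WT mice at 22 weeks on AL and lower in Ercc1Δ/− mice on DR, since genes that moved together invite a look at their promoters. Each is the 250 bases before the annotated start, read from GRCm39 on the strand of the gene. Capitals mark 2 short motifs found by a search of both strands, the ETS core GAGGAA of factors such as PU.1 and the AP-1 motif TGANTCA. For Spp1 the window is chr5:104581915-104582164 on the plus strand, for Gpnmb chr6:49013176-49013425 on the plus strand, for Trem2 chr17:48653179-48653428 on the plus strand and for Cd68 chr11:69557068-69557317 on the minus strand.
Spp1: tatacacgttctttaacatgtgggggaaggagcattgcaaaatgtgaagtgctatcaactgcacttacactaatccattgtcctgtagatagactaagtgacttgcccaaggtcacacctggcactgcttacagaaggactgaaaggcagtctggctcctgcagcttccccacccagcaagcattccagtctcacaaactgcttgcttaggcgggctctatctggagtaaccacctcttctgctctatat
Gpnmb: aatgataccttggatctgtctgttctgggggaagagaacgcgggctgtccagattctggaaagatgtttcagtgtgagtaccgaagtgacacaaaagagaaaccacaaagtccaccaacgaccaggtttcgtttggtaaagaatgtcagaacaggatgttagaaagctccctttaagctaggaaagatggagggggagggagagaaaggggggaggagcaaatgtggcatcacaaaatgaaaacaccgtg
Trem2: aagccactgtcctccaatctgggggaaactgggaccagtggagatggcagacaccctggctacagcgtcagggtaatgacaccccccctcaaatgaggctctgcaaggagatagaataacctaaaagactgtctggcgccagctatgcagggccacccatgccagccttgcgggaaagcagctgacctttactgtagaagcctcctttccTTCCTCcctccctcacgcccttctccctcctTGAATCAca
Cd68: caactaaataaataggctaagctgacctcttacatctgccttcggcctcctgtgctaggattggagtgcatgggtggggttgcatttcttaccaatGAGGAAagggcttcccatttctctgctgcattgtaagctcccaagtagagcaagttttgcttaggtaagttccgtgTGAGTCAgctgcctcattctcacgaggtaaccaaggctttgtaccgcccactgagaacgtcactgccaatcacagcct

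Both motifs were found before Trem2 (ETS core at −40 to −35 and AP-1 at −9 to −3, counted from the start site) and before Cd68 (−154 to −149 and −78 to −72). Tyrobp had an ETS core at −38 to −33. Neither motif lay in the windows of Spp1, Gpnmb or the other 5 genes. Of 21630 mouse promoters of the same length, 23.0% held GAGGAA and 6.19% held TGANTCA. The E-box CACGTG (6.29% of promoters), the M-box TCATGTG (2.92%) bound by factors such as MITF, and TATAAA (11.9%) were in none of the 10 windows. These are matches of letters and do not show binding.

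Normalized counts, that is counts scaled to a library of 3683502 counts with TMM factors, are given for single samples below. A difference was called where edgeR's quasi-likelihood test passed at 0.05 after Benjamini-Hochberg adjustment over all 12353 genes and the change reached 1.2-fold. For Spp1 and Lgals3 no test is given in comparisons with a 22-week group, since those groups chose them, and the counts of called genes at 22 weeks are over the other 8. Annotated genes overlap Spp1, Gpnmb and Cd9, and each of those held 0 to 4 counts per sample. The plot of normalized counts by sample shows all 10 genes in the 6 groups.

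**Figure D1:**
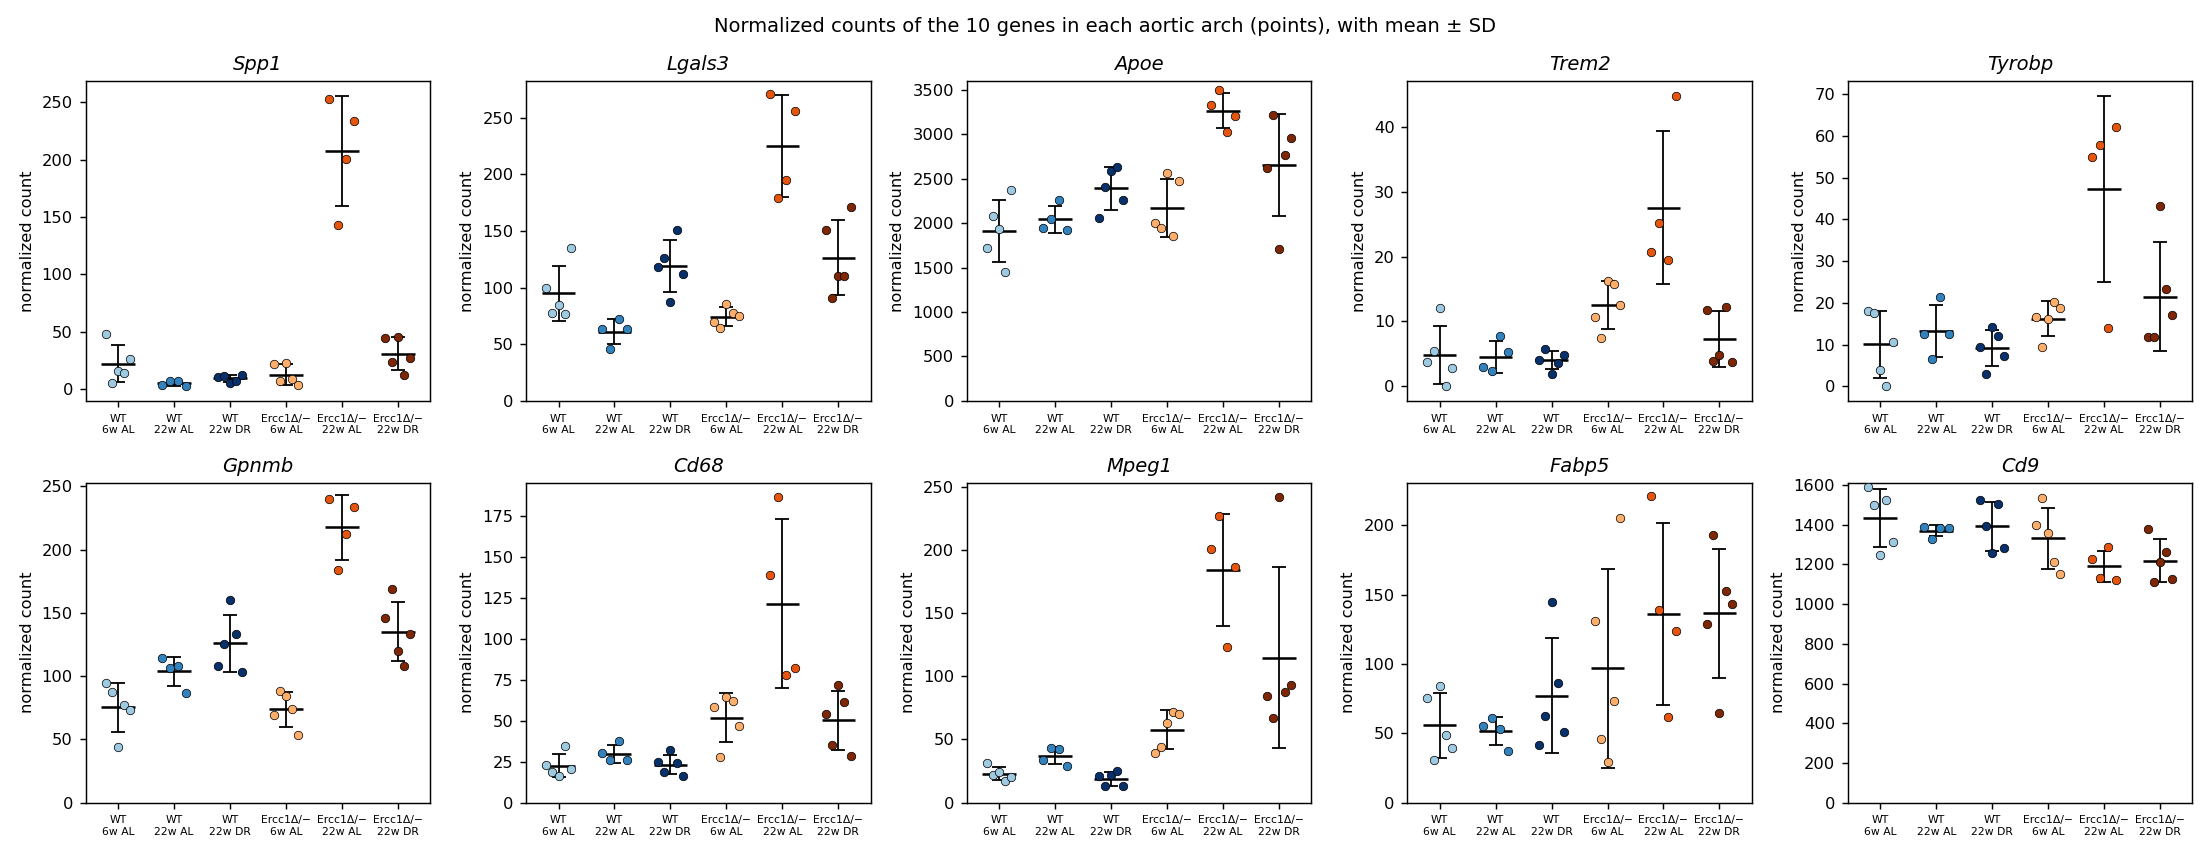
Normalized count (y axis, from 0 or just below) of each of the 10 genes in the 6 groups (x axis), 1 point per mouse, with the mean as a line and the SD as a bar. Spp1 sits between 143 and 253 in the 4 AL-fed Ercc1Δ/− mice of 22 weeks and at 47.6 or below in all 24 other mice, whereas Cd9 lies between 1114 and 1588 throughout.

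Spp1 encodes osteopontin, a secreted phosphoprotein that binds integrins and CD44, and lies at chr5:104582165-104589235 on the plus strand. At 22 weeks on AL, its level was 253, 143, 201 and 234 normalized counts in Ercc1Δ/− mice and 3.88, 6.91, 6.84 and 2.28 in WT mice. On DR the 5 Ercc1Δ/− mice had 44.7, 23.6, 45.6, 12.3 and 26.7, and the 5 WT mice 10.7, 11.6, 5.21, 7.19 and 12.2. The Ercc1Δ/− AL-fed mice thus lay above all others, DR brought Ercc1Δ/− mice lower without overlap, and the restricted Ercc1Δ/− mice still lay just above the restricted WT mice.

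At 6 weeks Spp1 stood at 21.5, 6.52, 22.7, 9 and 3.13 in Ercc1Δ/− mice and at 47.6, 5.46, 16.1, 14.3 and 26 in WT mice. These groups overlapped, and the log2 fold change of −1.01 (SE 0.51, adjusted p = 0.431, edgeR) did not pass. From 6 to 22 weeks on AL, the log2 fold change was 4.05 (SE 0.43) in Ercc1Δ/− mice and −2.40 (SE 0.57) in WT mice, as a description. With single samples left out, the WT value ran from −2.81 to −1.86, and the WT mice of 22 weeks held 4 to 15 raw counts. The WT mouse with 47.6, sample 001, also held 3605 normalized counts of Schwann cell markers, against 92.6 to 234 in every other sample. The part of this in the WT value was not tested. At 22 weeks on AL the genotypes differed by 5.44 (SE 0.49) on the log2 scale, and on DR by 1.62 (SE 0.36). Restriction went with −2.90 (SE 0.27) in Ercc1Δ/− mice and 0.97 (SE 0.42) in WT mice, so that the difference between these responses, which chose the gene, was −3.87 (SE 0.51). Spp1 exceeded 10 counts in 14 of the 28 samples: 4 of 4 AL-fed and 3 of 5 restricted Ercc1Δ/− mice of 22 weeks, 1 of 4 and 2 of 5 of the WT mice, and 2 of 5 mice of each genotype at 6 weeks. It thus passed the filter on counts only through the AL-fed Ercc1Δ/− mice of 22 weeks, where it was high. Its test at 6 weeks, where most counts were low, depended on that group in this way.

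Lgals3 encodes galectin-3, a lectin that binds galactose-containing sugar chains and is abundant in activated macrophages, and lies at chr14:47605208-47623624 on the plus strand. It had 271, 179, 195 and 256 normalized counts in AL-fed Ercc1Δ/− mice of 22 weeks and 63.1, 45.6, 72.6 and 63.4 in the WT mice. On DR it had 151, 90.5, 110, 110 and 171 in Ercc1Δ/− mice and 118, 126, 87.2, 151 and 112 in WT mice. DR thus took the genotypes from values far apart to ranges that overlapped, with lower counts than on AL in Ercc1Δ/− mice and higher counts than on AL in WT mice, neither pair overlapping. The log2 fold change under DR was −0.85 (SE 0.18) in Ercc1Δ/− mice and 0.99 (SE 0.17) in WT mice, a difference of −1.84 (SE 0.25).

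The genotypes differed in Lgals3 by 1.89 (SE 0.19) on AL and by 0.12 (SE 0.17) on DR on the log2 scale. In WT mice Lgals3 was lower at 22 than at 6 weeks, when it had 77.1 to 135 normalized counts, by a log2 fold change of −0.72 (SE 0.18) without overlap. In Ercc1Δ/− mice it was higher than the 64.2 to 85.9 of 6 weeks, by 1.60 (SE 0.18). At 6 weeks the genotypes overlapped and the log2 fold change of −0.42 (SE 0.18, adjusted p = 0.295, edgeR) did not pass.

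At 6 weeks the comparison asked which of the 10 genes already differed between genotypes in young mice. Only Cd68 and Mpeg1 were called, both higher in Ercc1Δ/− mice, which makes 2 of the 9 genes tested against 0.567% of all tested genes called higher. Mpeg1, which encodes the pore-forming protein perforin-2 of macrophages (chr19:12438114-12442649, plus strand), had 39, 43.8, 63.2, 72 and 70.4 normalized counts in Ercc1Δ/− mice and 31, 21.8, 24.1, 17.1 and 19.9 in WT mice, without overlap. Its log2 fold change was 1.28 (SE 0.23, adjusted p = 0.00582, edgeR).

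Cd68, which encodes a lysosomal glycoprotein used as a stain for macrophages (chr11:69555037-69557067, minus strand), had 58.5, 27.9, 64.8, 61.9 and 46.9 normalized counts in Ercc1Δ/− mice of 6 weeks and 22.7, 18.5, 16.1, 34.3 and 20.7 in WT mice. One Ercc1Δ/− mouse lay within the WT range. The log2 fold change was 1.25 (SE 0.28, adjusted p = 0.0269, edgeR), and this call was lost without any one of 7 of the 10 samples and after thinning. For Tyrobp (0.35), Apoe (0.19), Fabp5 (0.89), Gpnmb (−0.07) and Cd9 (−0.09) the log2 fold changes did not pass at 6 weeks.

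At 22 weeks on AL, the same comparison called 5 of the 7 other genes tested, each higher in Ercc1Δ/− mice: Mpeg1, Cd68, Gpnmb, Apoe and Tyrobp. Over all tested genes 5.88% were called higher. The median log2 fold change of the 7 was 1.50, and 0.03 over all tested genes. Counting Trem2, 6 of the 8 other genes did not overlap between genotypes and were higher in Ercc1Δ/− mice (Gpnmb, Trem2, Cd68, Mpeg1, Apoe and Fabp5), where 9.01% of all tested genes were so.

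Mpeg1 had 201, 227, 123 and 187 normalized counts in AL-fed Ercc1Δ/− mice of 22 weeks and 34, 43.3, 42.7 and 29.2 in WT mice. Its log2 fold change was 2.29 (SE 0.21, adjusted p = 4.13e-07, edgeR). Cd68 had 139, 187, 78.1 and 82.1 against 30.1, 26.3, 37.6 and 25.8, a log2 fold change of 2.09 (SE 0.27, adjusted p = 2.99e-05, edgeR). For both genes the lowest Ercc1Δ/− mouse lay well above the highest WT mouse.

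Gpnmb encodes a transmembrane glycoprotein of late endosomes and lysosomes that is induced under lysosomal stress (chr6:49013426-49047863, plus strand). It had 240, 184, 212 and 234 normalized counts in the Ercc1Δ/− mice and 114, 106, 108 and 87 in the WT mice. The log2 fold change was 1.08 (SE 0.16, adjusted p = 1.00e-04, edgeR), with little spread within either group.

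Apoe, apolipoprotein E (chr7:19430034-19434947, minus strand), carries lipid out of cells. It had 3334, 3499, 3030 and 3213 normalized counts in Ercc1Δ/− mice and 1949, 2046, 2258 and 1924 in WT mice. Its log2 fold change of 0.67 (SE 0.13, adjusted p = 0.00171, edgeR) was the smallest among the called genes, although the groups lay well apart.

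Tyrobp, the adaptor that carries the signal of TREM2 and of other receptors (chr7:30113170-30117010, plus strand), had 55, 57.8, 14 and 62.2 normalized counts in Ercc1Δ/− mice and 12.6, 6.45, 21.4 and 12.5 in WT mice. Sample 013, with 14, fell within the WT range, and the other 3 lay above it. That 14 came from 5 raw counts, in a sample where 3 counts would be worth 8.37. The log2 fold change was 2.11 (SE 0.39, adjusted p = 8.88e-04, edgeR).

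Trem2, the lipid receptor (chr17:48653429-48661175, plus strand), had few reads. Its normalized counts were 20.7, 25.2, 19.5 and 44.8 in AL-fed Ercc1Δ/− mice of 22 weeks and 2.91, 2.3, 7.69 and 5.32 in WT mice, without overlap. A two-sided exact permutation test gave p = 0.0286, the smallest that 4 against 4 samples allow, and 0.0806 when adjusted over 66 such tests of the genes and comparisons. Without the filter on low counts, edgeR gave a log2 fold change of 2.61 (SE 0.40, adjusted p = 3.64e-06) for Trem2.

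Fabp5, an intracellular carrier of fatty acids (chr3:10077602-10081674, plus strand), had 221, 139, 61.4 and 124 normalized counts in Ercc1Δ/− mice and 55.3, 61.3, 53 and 37.2 in WT mice. The groups just failed to overlap, and the log2 fold change of 1.50 (SE 0.52, adjusted p = 0.08, edgeR) did not pass. It passed without sample 013, at 1.77.

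Cd9, a tetraspanin that organizes membrane proteins (chr6:125437210-125471778, minus strand), had 1226, 1130, 1286 and 1122 normalized counts in Ercc1Δ/− mice and 1387, 1328, 1382 and 1382 in WT mice. Here the Ercc1Δ/− mice were the lower ones, without overlap, but the log2 fold change of −0.19 (SE 0.10, adjusted p = 0.246, edgeR) did not pass.

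**Figure D2:**
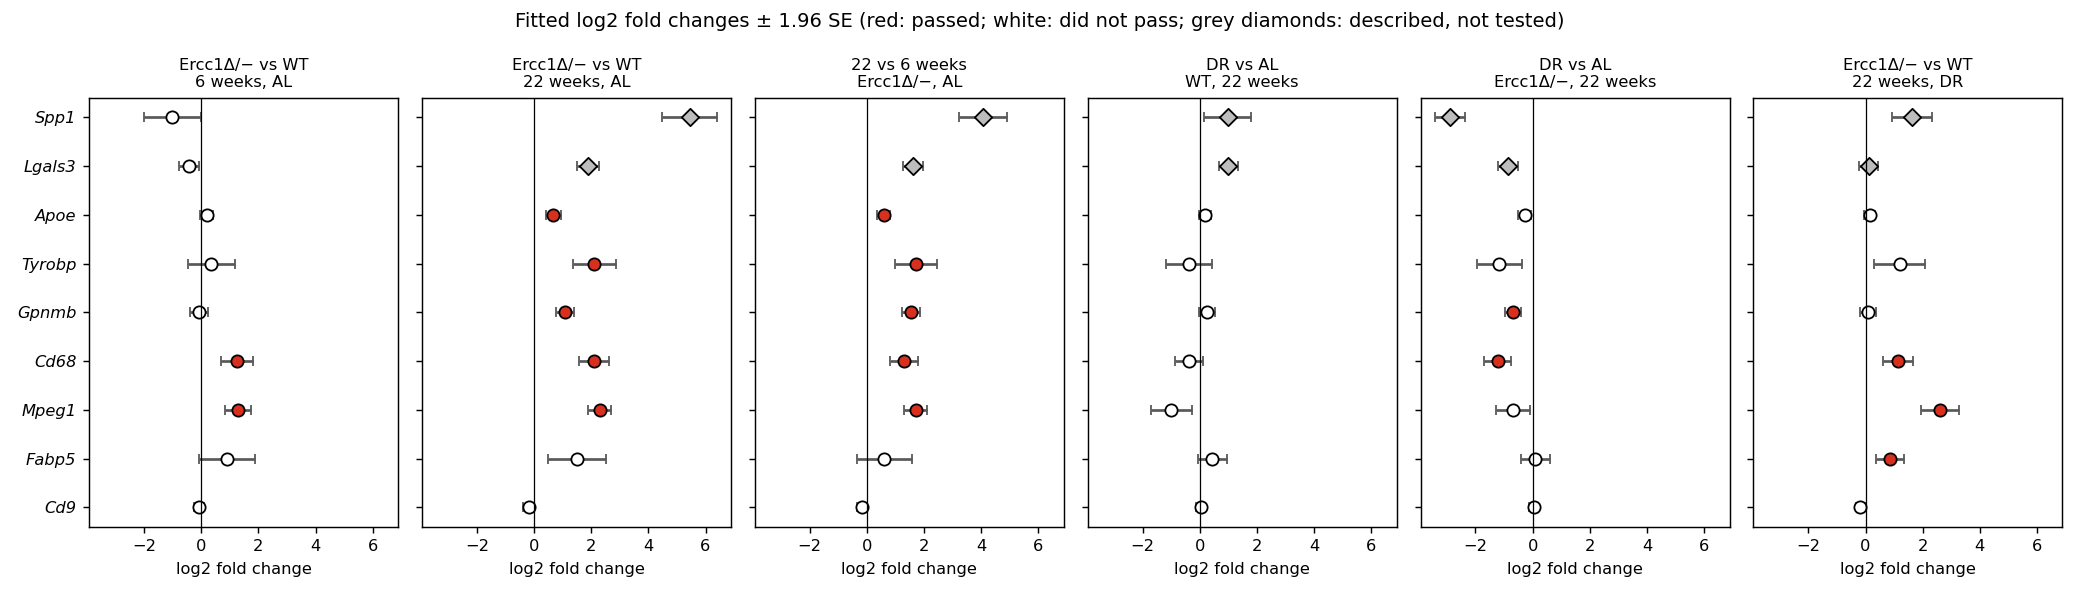
Log2 fold change (x axis) of the 9 tested genes (rows) in 6 comparisons (panels), with bars of 1.96 SE. Red points passed the test, white points did not, and grey diamonds are Spp1 and Lgals3 where they are described only. Mpeg1 and Cd68 are to the right of 0 and called in all 3 panels that compare Ercc1Δ/− with WT mice, and in restricted Ercc1Δ/− mice Gpnmb and Cd68 are called to the left of 0.

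With age, the question was whether the genes changed from 6 to 22 weeks on AL in each genotype. In WT mice none of the 7 other genes tested was called by edgeR, with 0.235% of all tested genes called in either direction, and 2 of the 7 had an unadjusted p under 0.05 (Mpeg1 and Gpnmb). DESeq2 also called none. Mpeg1 had a log2 fold change of 0.69 (SE 0.24, adjusted p = 0.322, edgeR) and Gpnmb of 0.39 (SE 0.16, adjusted p = 0.44, edgeR).

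In Ercc1Δ/− mice 5 of the 7 were called higher at 22 weeks, against 2.11% of all tested genes. They were Mpeg1, Gpnmb, Tyrobp, Cd68 and Apoe, the same 5 as between genotypes at 22 weeks, a comparison that shares the AL-fed Ercc1Δ/− mice. The log2 fold changes were 1.70 (SE 0.20, adjusted p = 6.60e-06) for Mpeg1, 1.54 (SE 0.16, adjusted p = 1.25e-06) for Gpnmb, 1.71 (SE 0.38, adjusted p = 0.00879) for Tyrobp, 1.29 (SE 0.25, adjusted p = 0.00304) for Cd68 and 0.58 (SE 0.12, adjusted p = 0.00655) for Apoe, all from edgeR. At 6 weeks the Ercc1Δ/− mice had 69.2, 88.4, 84.3, 74.3 and 53.2 normalized counts of Gpnmb and 1998, 1948, 2571, 1854 and 2472 of Apoe, all below the values of 22 weeks. With Trem2, 5 of the 8 did not overlap between ages and were higher at 22 weeks, against 3.41% of all tested genes, and Tyrobp overlapped through sample 013.

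Trem2 had 10.7, 7.45, 16.2, 15.8 and 12.5 normalized counts in Ercc1Δ/− mice of 6 weeks and 3.78, 5.46, 12.1, 0 and 2.85 in WT mice. The 0 stands for sample 019, where 3 counts would be worth 8.56, and Tyrobp was at 0 in the same sample. The exact permutation p between genotypes was 0.0238 at 6 weeks and that between ages in Ercc1Δ/− mice was 0.0159, or 0.0806 and 0.0698 when adjusted over the 66 tests.

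Whether the change with age differed between genotypes was tested directly for the 7. Gpnmb alone passed, with a difference of 1.16 on the log2 scale (SE 0.22, adjusted p = 0.0111, edgeR) and 1 of 7 called against 0.372% of all tested genes with a more positive change in Ercc1Δ/− mice. Tyrobp (1.76, adjusted p = 0.191), Mpeg1 (1.00, adjusted p = 0.166), Cd68 (0.84, adjusted p = 0.429) and Apoe (0.48, adjusted p = 0.275) had positive differences that did not pass in edgeR. Without sample 013, Tyrobp passed at 2.11. Gpnmb lost its call after thinning to 921167 counts.

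DR was compared with AL at 22 weeks to ask whether it moved the genes in either genotype. In WT mice none of the 7 other genes tested was called by edgeR, with 1.28% of all tested genes called in either direction. Mpeg1 was the 1 gene with an unadjusted p under 0.05, and DESeq2 also called none of the 7. It had 21.4, 13.1, 21.5, 25.2 and 12.8 normalized counts on DR, all below the AL-fed WT mice, with a log2 fold change of −0.99 (SE 0.36, adjusted p = 0.225, edgeR), which passed when the fit held only the 2 groups. Gpnmb (0.26), Apoe (0.19), Fabp5 (0.43), Cd68 (−0.38), Tyrobp (−0.38) and Cd9 (0.03) did not pass.

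In Ercc1Δ/− mice Cd68 and Gpnmb were called lower on DR, 2 of the 7 tested against 0.988% of all tested genes. Cd68 had 54.1, 35.4, 72, 61.4 and 28.6 normalized counts on DR, all below the AL-fed mice, and its log2 fold change was −1.22 (SE 0.24, adjusted p = 0.00964, edgeR). Gpnmb had 146, 169, 120, 108 and 133 and fell without overlap, by 0.69 on the log2 scale (SE 0.15, adjusted p = 0.017, edgeR). Leaving out 1 sample removed the call of Gpnmb in 3 cases (004, 022 and 026) and that of Cd68 in 1 (005).

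Trem2 stood at 11.8, 3.94, 4.8, 12.3 and 3.81 normalized counts in restricted Ercc1Δ/− mice, below every AL-fed Ercc1Δ/− mouse. The exact permutation p was 0.0159, or 0.0698 when adjusted over the 66 tests, and without the filter on low counts edgeR gave −1.81 (SE 0.42, adjusted p = 0.00919) for Trem2. Thus Cd68, Gpnmb and Trem2 made 3 of 8 genes that did not overlap and were lower on DR, where 3.02% of all tested genes were so. The restricted WT mice had 4.01, 5.81, 1.95, 3.6 and 4.87.

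Mpeg1 had 84.7, 66.9, 242, 87.3 and 93.4 normalized counts in restricted Ercc1Δ/− mice. The 242 belongs to sample 016, and the other 4 lay below all AL-fed Ercc1Δ/− mice. With sample 016 the log2 fold change of Mpeg1 was −0.68 (SE 0.30, adjusted p = 0.287, edgeR), and without it −1.11 (SE 0.18, adjusted p = 0.00209, edgeR). Tyrobp, with 11.8, 11.8, 43.2, 23.2 and 17.1, was also highest in sample 016 and did not pass with it (−1.16, adjusted p = 0.146, edgeR) or without it (−1.49, adjusted p = 0.0639, edgeR).

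Apoe went the other way in that sample, with 2626, 3215, 1706, 2771 and 2961 normalized counts on DR. Its log2 fold change of −0.28 (SE 0.11, adjusted p = 0.212, edgeR) did not pass, and was −0.17 (adjusted p = 0.353) without sample 016. Fabp5, with 129, 193, 64.8, 153 and 143, and Cd9, with 1377, 1114, 1211, 1263 and 1128, had log2 fold changes of 0.09 (adjusted p = 0.92) and 0.04 (adjusted p = 0.892) in edgeR. For Cd9 the interval of 1.96 SE around the effect of DR in Ercc1Δ/− mice ran from −0.13 to 0.20.

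The difference between the responses to DR, which chose Spp1 and Lgals3, is given for the others as a description. On the log2 scale it was −0.95 (SE 0.20) for Gpnmb, −0.84 (SE 0.36) for Cd68, −0.78 (SE 0.59) for Tyrobp, −0.47 (SE 0.16) for Apoe and −0.34 (SE 0.37) for Fabp5. For Mpeg1 it was 0.31 (SE 0.47) with sample 016 and −0.10 (SE 0.28) without it, and for Cd9 it was 0.01 (SE 0.12). Without sample 016 it was −4.03 (SE 0.52) for Spp1 and −1.78 (SE 0.25) for Lgals3. The size thus ranged from none visible for Cd9 to the −3.87 of Spp1.

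Among restricted mice, 3 of the 7 other genes tested were called higher in Ercc1Δ/− than in WT mice, where 5.97% of all tested genes were: Mpeg1 (log2 fold change 2.62, SE 0.34, adjusted p = 8.65e-05), Cd68 (1.13, SE 0.27, adjusted p = 0.00509) and Fabp5 (0.86, SE 0.25, adjusted p = 0.0281), all from edgeR. The call of Fabp5 was lost under 4 other settings and without any of 6 samples. Without sample 016 the log2 fold changes were 2.15, 0.94 and 0.97 and all 3 remained called, and Apoe was called in addition (0.26, adjusted p = 0.0401). Cd68 had 24.7, 18.9, 31.9, 24 and 16.4 normalized counts in restricted WT mice, which overlapped with the Ercc1Δ/− mice on DR. Gpnmb, at 0.08 (SE 0.14, adjusted p = 0.782, edgeR), had 108, 125, 160, 133 and 103 in restricted WT mice, and the interval of 1.96 SE ran from −0.20 to 0.36.

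Set against WT mice on AL, which asks how far the restricted Ercc1Δ/− mice were from normally fed WT mice, 4 of the 7 were called higher, against 7.88% of all tested genes. Mpeg1 had a log2 fold change of 1.63 (SE 0.32, adjusted p = 0.00202) with sample 016 and 1.14 (SE 0.20, adjusted p = 3.22e-04) without it, Fabp5 of 1.29 (SE 0.27, adjusted p = 0.00283), Apoe of 0.34 (SE 0.11, adjusted p = 0.039) and Cd68 of 0.75 (SE 0.26, adjusted p = 0.0497), from edgeR. Apoe lost its call under 3 other settings and without any of 6 samples. Cd68 lay at the threshold and was lost under 6 of 9 other settings and without any of 6 samples, among them 016 (0.55, adjusted p = 0.181). Spp1 was higher by 2.59 (SE 0.41) and Lgals3 by 1.11 (SE 0.18), both without overlap.

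General macrophage genes also differed between genotypes at 22 weeks on AL. A list of 12 such markers summed to 1574 to 2464 normalized counts in AL-fed Ercc1Δ/− mice of 22 weeks and to 1079 to 1410 in WT mice, with none of the 12 at 0 in all samples. Of the 8 tested, 6 were called higher between these groups, where 5.88% of all tested genes were, and the median log2 fold change of the 8 was 1.30. Among the 6 were Adgre1, the gene of the macrophage surface protein F4/80 (1.26, SE 0.25, adjusted p = 0.00143), and C1qb, a chain of complement C1q (1.51, SE 0.27, adjusted p = 0.00154), from edgeR. Mertk, a receptor for dying cells, was called lower (−0.51, SE 0.13, adjusted p = 0.0102, edgeR), where 6.16% of all tested genes were. At 6 weeks the sums overlapped, with 790 to 1625 in Ercc1Δ/− mice and 797 to 1073 in WT mice. Of the 8, 0 were called higher in Ercc1Δ/− mice there (0.567% of all tested genes were) and 1 was called lower (1.13%). On DR the sum in Ercc1Δ/− mice was 1200 to 1330 in 4 samples and 2356 in sample 016.

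Each gene was therefore also set against the summed counts of these 12 markers in the same sample. Between genotypes at 22 weeks on AL, 3 of the 8 other genes, Mpeg1, Cd68 and Trem2, were higher without overlap in Ercc1Δ/− mice on this scale, where 0.907% of all tested genes were. The marker sum in the denominator was itself higher in these mice, and 49.1% of all tested genes were lower without overlap. The 0.907% is therefore low from the outset and is no measure for macrophage genes. Mpeg1 stood at 9.14 ± 0.968 per 100 marker counts (mean ± SD, n = 4) against 3.13 ± 0.469, Cd68 at 5.88 ± 1.45 against 2.5 ± 0.265 and Trem2 at 1.42 ± 0.681 against 0.371 ± 0.164. For Apoe the ratio was 166 ± 21.8 against 172 ± 8.9 and for Gpnmb 11.2 ± 2.66 against 8.77 ± 1.4, with overlap. The result for Apoe turned with the markers in the sum. Mertk alone gave 36.7% to 43.5% of the marker counts in these WT mice and 13.2% to 22.3% in the Ercc1Δ/− mice. Without Mertk, an alternative added after seeing the data, Apoe was lower without overlap in Ercc1Δ/− mice (204 ± 37.3 against 296 ± 29.8, n = 4), and without C1qa, C1qb and C1qc it was higher without overlap (358 ± 33.7 against 256 ± 10.2). Mpeg1, Cd68 and Trem2 were higher without overlap under both.

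Spp1 and Lgals3 were chosen on counts of the 22-week groups that these ratios reuse, so their values on this scale are a description. Spp1 stood at 10.8 ± 3.34 per 100 marker counts in AL-fed Ercc1Δ/− mice of 22 weeks. It had 1.09 ± 0.742 at 6 weeks and 2.11 ± 1 on DR in Ercc1Δ/− mice, and 0.411 ± 0.169 in AL-fed WT mice of 22 weeks. It lay without overlap in all 3 comparisons with the first of these groups. Lgals3 stood at 11.6 ± 2.94 in those Ercc1Δ/− mice, 5.14 ± 0.855 in the WT mice, and 9.24 ± 3.49 on DR, and the restricted and AL-fed Ercc1Δ/− mice overlapped. Without Mertk in the sum, Lgals3 also overlapped between genotypes at 22 weeks on AL. With age in Ercc1Δ/− mice, Mpeg1 alone of the 8 others was higher without overlap (against 0.194% of all tested genes, with 27.6% lower without overlap). On DR none of the 8 others was lower without overlap, against 0.121% of all tested genes. For Mpeg1 this rested on sample 016, at 10.3 per 100 marker counts. The other restricted Ercc1Δ/− mice had 5.5 to 7.06, below the 7.8 to 10.1 of the AL-fed ones. No share over all genes was taken without sample 016.

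**Figure D3:**
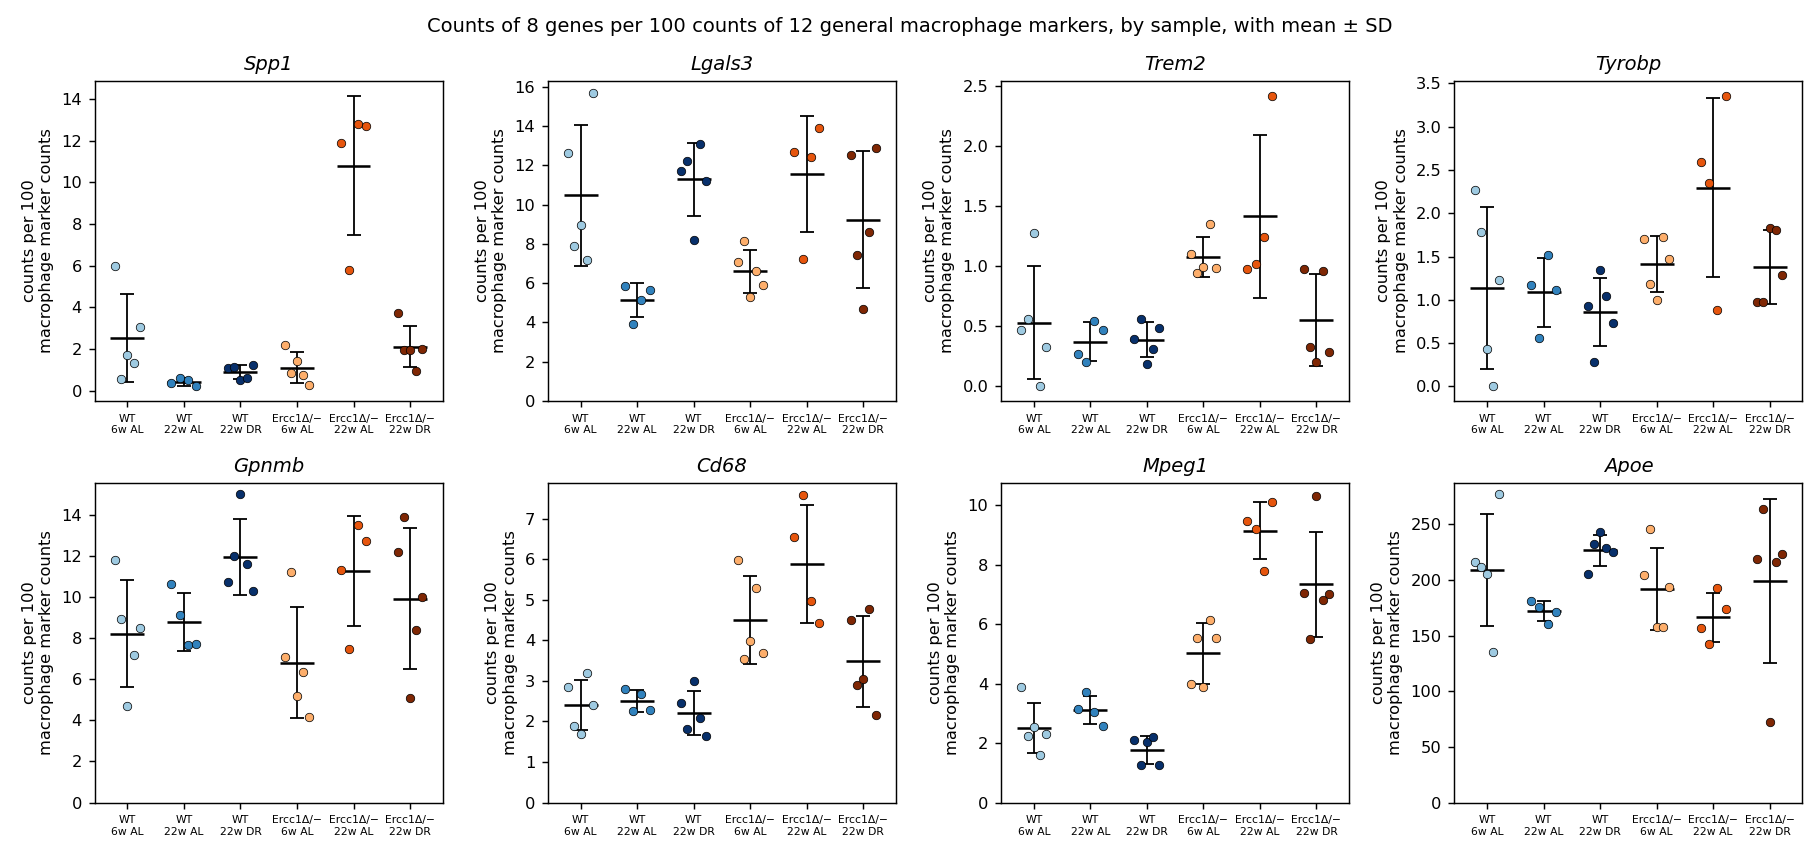
Counts of 8 of the genes per 100 summed counts of 12 macrophage markers (y axis) in the 6 groups (x axis), 1 point per mouse, with mean and SD. Spp1 in AL-fed Ercc1Δ/− mice of 22 weeks (5.8 to 12.8) is above every other Ercc1Δ/− mouse, while Apoe and Gpnmb overlap between genotypes at 22 weeks on AL.

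The markers of other cells moved as well. The 9 smooth muscle markers summed to 61925 to 96162 normalized counts in AL-fed Ercc1Δ/− mice of 22 weeks and to 118108 to 141481 in WT mice, without overlap, and 7 of the 9 were called lower by edgeR (median log2 fold change −0.77), where 6.16% of all tested genes were called lower. Monocyte and neutrophil markers summed to 44.6 to 116 against 20.4 to 32.2, and the 2 that could be tested, Plac8 and Ccr2, were both called higher, where 5.88% of all tested genes were. The 7 T cell markers, all too low to test, summed to 9.95 to 28.4 against 3.88 to 8.75. Of 9 tested markers of resident perivascular macrophages, 3 were called higher (5.88% of all tested genes) and 1 lower (6.16%). On DR in Ercc1Δ/− mice 3 of these 9 were called lower (0.988%). In sample 016 the summed monocyte and neutrophil markers reached 506 normalized counts, against 17.1 to 96.8 in the other 4 restricted Ercc1Δ/− mice, and 5 B cell markers summed to 57.6 there. Mesothelium markers summed to 505 to 804 in AL-fed Ercc1Δ/− mice of 22 weeks and to 33 to 536 in WT mice, and mitochondrial genes took 5.37% to 5.96% of counts against 2.47% to 3.72%. The part of these in the results was not tested.

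**Figure D4:**
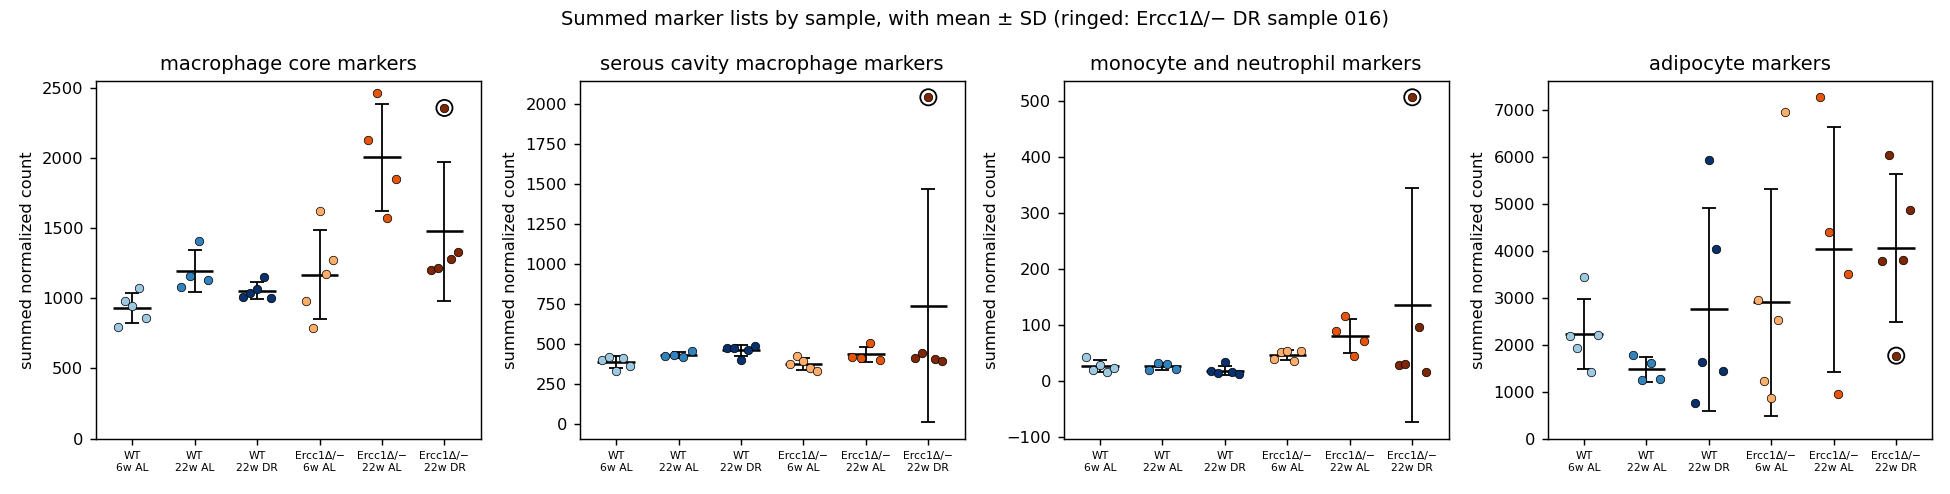
Summed normalized counts (y axes) of 4 lists of cell markers in the 6 groups, 1 point per mouse, with mean and SD, and sample 016 ringed. Sample 016 is at 2039 for serous cavity macrophage markers, while every other sample lies between 329 and 505.

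Fabp5 followed fat cells more than macrophages. Across the 28 samples its log2 CPM had a Pearson r of 0.89 and a Spearman rho of 0.87 with the summed adipocyte markers (0.86 without the 2 samples farthest out, and 0.90 with values centred within groups), and an r of 0.35 with the macrophage markers. The adipocyte markers summed to 952 to 7272 normalized counts in AL-fed Ercc1Δ/− mice of 22 weeks and 1242 to 1779 in WT mice. With the macrophage markers, Mpeg1 and Cd68 had an r of 0.84 and 0.83, and of 0.70 and 0.64 with values centred within groups. Spp1 and Lgals3 had an r of 0.61 and 0.53, and of 0.07 and 0.03 when centred. These relations were not particular to the macrophage markers. With the monocyte and neutrophil markers, Mpeg1 and Cd68 had an r of 0.80 and 0.72, and of 0.74 and 0.51 when centred. With the smooth muscle markers, r was −0.84 for Mpeg1, −0.79 for Cd68, −0.62 for Spp1 and −0.50 for Lgals3. When centred, these became −0.23, −0.25, 0.12 and 0.05. These values share the libraries and their depth, and no p is given.

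**Figure D5:**
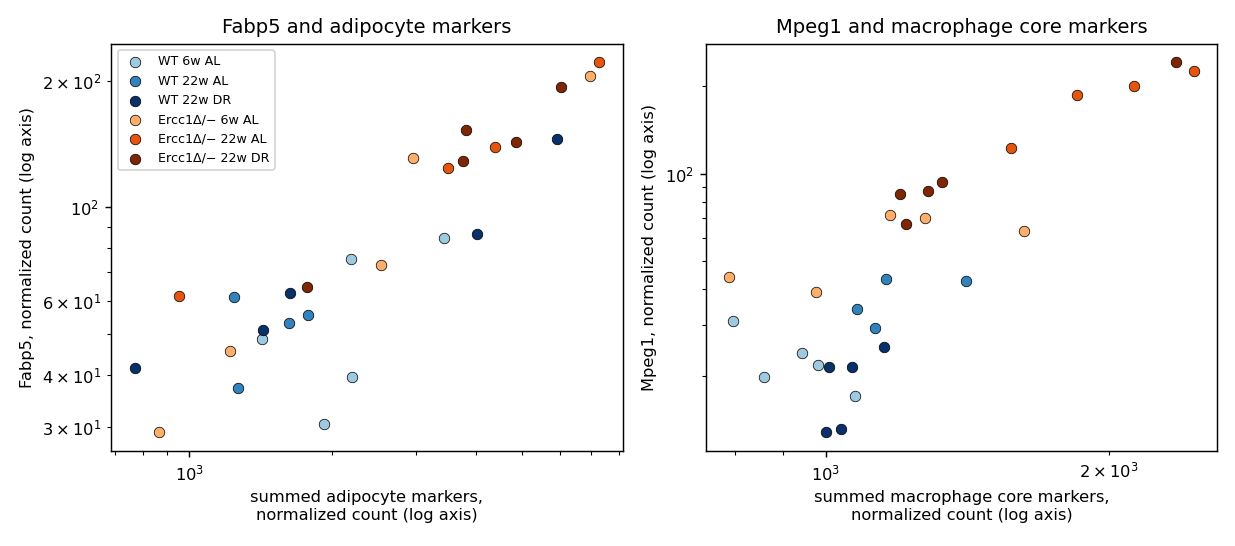
Normalized count of Fabp5 against summed adipocyte markers (left) and of Mpeg1 against summed macrophage markers (right), 1 point per mouse, colours for the 6 groups, all axes logarithmic. Fabp5 rises with the adipocyte markers in both genotypes (r = 0.89 over 28 samples), and Mpeg1 with the macrophage markers (r = 0.84).

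The genes most like each member were sought over all tested genes by the Pearson r of log2 CPM across the 28 samples. Mpeg1 was closest to Lyz2 (0.95), Ctss (0.94) and Laptm5 (0.93), and Cd68 to Ctss (0.90), Ccl9 (0.89) and Clec10a (0.89), all of them genes of myeloid cells. Tyrobp was closest to Fcer1g (0.86), the other common adaptor of this kind, and Fabp5 to Acsl5 (0.94), Plin2 (0.94) and Elovl3 (0.92), genes of fatty acid metabolism.

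Spp1 was closest to Fxyd5 (0.84), Tmem176a (0.84) and Vcam1 (0.83), Lgals3 to Spp1 (0.81), Celf4 (0.78) and Htra4 (0.77), and Gpnmb to Mmp3 (0.89), Coch (0.87) and Fth1 (0.82). Apoe was closest to Iscu (0.81), Ifi202b (0.79) and Icam1 (0.79). Cd9 was close to Dstn (0.81) and Kmt5b (0.78). Among the 9 tested genes themselves, the median r of the 36 pairs was 0.49, and 0.08 once values were centred within groups, and all 8 pairs with Cd9 were negative, from −0.63 to −0.31.

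Levels of different genes can be compared only per length, and since reads were counted over whole genes, both the gene body and the exons are given. Per kilobase of gene body, Apoe had 486 normalized counts (mean of 28 samples), Cd9 38.4, Cd68 23.7, Fabp5 22.7, Mpeg1 15.4, Lgals3 6.24, Spp1 6.17, Tyrobp 4.89, Gpnmb 3.46 and Trem2 1.25. Per kilobase of exon, Cd9 had 624 and Apoe 590, and the others lay between 1.96 (Trem2) and 49.9 (Lgals3). Apoe and Cd9 were the 2 highest and Trem2 the lowest on both scales, and the order of the rest changed with the length used. In AL-fed Ercc1Δ/− mice of 22 weeks, Spp1 had 29.4 per kilobase of gene body and 73 per kilobase of exon. Neighbours in these orders were not tested against each other.

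Genes that work with these were taken from 11 lists. Over all tested genes, 5.88% were called higher and 6.16% lower between genotypes at 22 weeks on AL, 5.97% higher between genotypes on DR, and 0.988% lower on DR in Ercc1Δ/− mice. Of 14 genes of cholesterol efflux and lipid storage, all tested, 9 were called higher in Ercc1Δ/− mice at 22 weeks on AL (median log2 fold change 0.67). They included Abcg1 and Abca1, the cholesterol exporters (2.15, SE 0.27, adjusted p = 1.96e-05, and 0.84, SE 0.16, adjusted p = 0.00121), Lipa, the lysosomal lipase (0.66, SE 0.11, adjusted p = 2.35e-04), and Mylip (0.71, SE 0.17, adjusted p = 0.00838), from edgeR. On DR in Ercc1Δ/− mice none of the 14 was called by edgeR, and among restricted mice 5 were called higher in Ercc1Δ/− mice.

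Of 10 lipid uptake and lipoprotein receptor genes, 7 were tested. At 22 weeks on AL, Lpl, the lipoprotein lipase (1.97, SE 0.53, adjusted p = 0.0262), and Lrp8 (0.85, SE 0.28, adjusted p = 0.0469, edgeR) were called higher in Ercc1Δ/− mice and 1 gene was called lower. On DR in Ercc1Δ/− mice 1 of the 7 was called lower, Lrp8 (−1.12, SE 0.27, adjusted p = 0.035, edgeR). Of 10 genes downstream of TREM2 and TYROBP, 6 were tested and 3 were called higher: Inpp5d (0.83, SE 0.20, adjusted p = 0.00737), Vav1 (1.19, SE 0.35, adjusted p = 0.0263) and Syk, the kinase that binds the adaptor (0.74, SE 0.24, adjusted p = 0.0423, edgeR). Of 15 lysosome genes, 14 were tested and 4 were called higher, Ctss (2.14), Hexa (0.44), Ctsz (0.52) and Ctsl (0.36). On DR in Ercc1Δ/− mice, Hexa (−0.56, adjusted p = 0.00835), Ctsz (−0.44, adjusted p = 0.0084) and Lamp1 (−0.30, adjusted p = 0.0442) were called lower in edgeR.

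Of 15 other lipid-associated macrophage genes only 6 had enough counts. Lgals1 (0.39, adjusted p = 0.0189) and Cxcl16 (0.65, adjusted p = 0.0312) were called higher in Ercc1Δ/− mice at 22 weeks on AL, and Lgals1 lower on DR in Ercc1Δ/− mice (−0.43, adjusted p = 0.0384, edgeR). Of 9 osteopontin receptor genes none was called higher in edgeR, and Itga9 (2-fold lower, adjusted p = 7.45e-06), Itga8 (−1.05, SE 0.13, adjusted p = 1.10e-05) and Itga5 (−0.50, SE 0.15, adjusted p = 0.0291) were called lower in Ercc1Δ/− mice at 22 weeks on AL. Of 3 tested genes of the MITF and TFE factors, none was called at 22 weeks on AL or on DR in Ercc1Δ/− mice.

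The families of single members moved unevenly. Among 5 related galectins, Lgals9 (1.11, SE 0.18, adjusted p = 2.44e-04), Lgals3bp, which binds galectin-3 (1.76, SE 0.27, adjusted p = 4.54e-04), and Lgals1 were called higher in Ercc1Δ/− mice at 22 weeks on AL. Among 7 tetraspanins related to Cd9, the leukocyte genes Cd53 (1.93, SE 0.35, adjusted p = 7.89e-04) and Cd37 (1.18, SE 0.37, adjusted p = 0.0386) and Cd82 (0.60, SE 0.19, adjusted p = 0.0435) were, and on DR in Ercc1Δ/− mice Tspan4 (−0.69, adjusted p = 0.00835) and Cd81 (−0.36, adjusted p = 0.018) were called lower in edgeR. Of the fatty acid binding proteins related to Fabp5, 2 of 3 were tested and neither was called there. The study named Vcam1, Cd68 and Lgals3 as marker genes of macrophage-like smooth muscle and reported their RNA from these samples. Vcam1 is thus not independent evidence. At 22 weeks on AL it was called higher in Ercc1Δ/− mice (1.74, SE 0.20, adjusted p = 1.96e-05), and lower on DR in Ercc1Δ/− mice (−1.09, SE 0.17, adjusted p = 0.00493, edgeR). The study also stained VCAM1 and MAC2 (galectin-3) protein and found more positive cells in the media of AL-fed Ercc1Δ/− than WT mice. On DR the decrease was significant for MAC2-positive cells only. On immunoblot the study found more VCAM1 in AL-fed Ercc1Δ/− than WT mice, with a decrease on DR that was not significant. MAC2 on immunoblot did not fall on DR.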

How the data were processed

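RNA of the aortic arch was sequenced with unique molecular identifiers. The authors deposited raw counts per gene, made with bcl2fastq 2.20, UMI-tools 1.1.2, STAR 2.7.10a and HTSeq 2.0.2 on GRCm39 and counted over the whole gene body. The kit kept strand, and the strand setting of the counting is not given in the sources used here. The 5 HTSeq summary lines, 12.6% to 18.7% of counts, were left out. The members and all gene lists were chosen with earlier results of these data known.

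Genes that exceeded 10 counts in over 10 of the 28 samples were tested with edgeR 4.0.16 (R 4.3.3): TMM factors of 0.935 to 1.07, a quasi-likelihood fit on group and sex, and Benjamini-Hochberg adjustment. One fit held the 18 AL-fed samples and another the 18 samples of 22 weeks. Differences between responses were called on the adjusted p alone. Standard errors were derived from the F statistic. The test was checked on data with known changes. Single genes were also tested with exact permutation tests (scipy 1.17.1), all two-sided. DESeq2 1.42.0 was an alternative. Symbols and promoter windows came from GENCODE and the GRCm39 genome, and 56017 identifiers had a symbol. Totals of 921167 to 9616382 counts limit precision for low genes. Each of the genes in the text is a member, a listed gene, or 1 of the 3 genes most like a member by Pearson r. Results for 2 such genes are not reported here.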

Additional observations from a re-analysis of the deposited data

Results flagged for a closer look

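Among 60 groups of values checked, 3 held a sample far from the others, and chance alone flags about 1 in 20. Mpeg1 had 242 normalized counts in sample 016 of the restricted Ercc1Δ/− mice, against 66.9 to 93.4 in the other 4. Tyrobp had 14, from 5 raw counts, in sample 013 of the AL-fed Ercc1Δ/− mice of 22 weeks, against 55 to 62.2 in the other 3. Cd9 had 1328 in sample 018 of the AL-fed WT mice of 22 weeks, against 1382 to 1387 in the other 3.

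The change of Gpnmb from 6 to 22 weeks differed between genotypes by 1.16 on the log2 scale (SE 0.22, adjusted p = 0.0111, edgeR), as tested by the interaction term.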

How the results depend on the processing

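No paired analysis was possible because each mouse gave 1 sample and no numbers pair the mice. Thinning to 921167 counts per sample left fewer called genes: 1 between genotypes at 6 weeks, 3 with age in Ercc1Δ/− mice, 0 for the difference between these changes, 1 under DR in Ercc1Δ/− mice, 1 between genotypes on DR, and 2 for restricted Ercc1Δ/− against AL-fed WT mice. The last count was also 2 without the filter on low counts and 1 with all 28 samples in one fit. With only the compared groups in the fit, 1 gene was called under DR in WT mice. Beside a macrophage list without C1qa, C1qb and C1qc, 5 genes were higher without overlap in place of 3. Without Mertk the count stayed at 3. The cause of these shifts was not tested.

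With single samples left out in turn, there were 1 to 2 called genes at 6 weeks, 5 to 6 between genotypes at 22 weeks on AL, 5 with age in Ercc1Δ/− mice, 1 to 2 for the difference between ages, 1 to 3 under DR in Ercc1Δ/− mice, 2 to 4 between genotypes on DR and 2 to 4 for restricted Ercc1Δ/− against AL-fed WT mice (2 without 006, 012, 018 or 025). The difference in response to DR ranged from −4.36 to −3.46 for Spp1 and from −1.95 to −1.69 for Lgals3.

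Apart from the described differences in response to DR, log2 fold changes that turned sign were uncalled ones near 0. Among those differences, that of Mpeg1 went from 0.31 (SE 0.47) to −0.10 (SE 0.28) without sample 016. With age in WT mice, Tyrobp came to 0.08 with DESeq2, 0.09 with sample 003 added and 0.30 after thinning, Fabp5 to 0.09 with sample 003 and 0.23 after thinning, and Trem2 to 0.14 without the filter. Fabp5 under DR in Ercc1Δ/− mice came to −0.09 without the sex term and −0.02 with all 28 samples, and Gpnmb between genotypes on DR to −0.01 after thinning. With single samples left out, the ranges were −0.18 to 0.02 for Gpnmb at 6 weeks, −0.30 to 0.24 for Tyrobp and −0.19 to 0.25 for Fabp5 with age in WT mice, −0.04 to 0.29 for Fabp5 and −0.00 to 0.07 for Cd9 under DR in Ercc1Δ/− mice, −0.02 to 0.06 for Cd9 under DR in WT mice, and −0.14 to 0.01 for Cd9 in the difference between ages. The earlier dispersion method of edgeR, chosen after seeing the data, moved no count of called genes by over 1.5 times.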
